A study of Danio rerio with 6 samples.

Results

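The genes described here encode the subunits of oxidative phosphorylation, measured in the brains of male zebrafish that had met lead only as embryos. Members were array targets whose zebrafish symbol, or whose homologue name where no symbol was given, begins with the letters used for subunits of complexes I to V (ndufa9, sdhb, uqcrc1, cox4i1 and atp5a1 are examples), with the copper chaperone cox17 left out. A target is one transcript sequence read by a small set of oligonucleotide probes. The rule found 114 of the 38489 targets on the array, under 60 names. There were 33 members named by a zebrafish symbol, written here in small letters, and 81 named by a homologue, written in capitals. Complex I had 47 targets, complex II 5, complex III 18, complex IV 20 and complex V 19. The remaining 5 targets met the rule by their letters but belong to genes that are no subunit: the assembly factors NDUFAF1 and ndufa12l, cox4nb and atp5s. NDUFA4 was counted with complex IV, of which it is now held to be a subunit.

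The lead-exposed group held 3 males of the AB strain whose embryos were kept in 100 ppb lead acetate from before 2 hours until 72 hours after fertilization. The control group held 3 AB males whose embryos were kept at 0 ppb over the same hours. All 6 fish were then raised without added lead at 28 °C, and the whole brain of each was taken at 12 months, with 1 brain and 1 one-colour NimbleGen array per fish. Female brains of the study were not analysed here.

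Oxidative phosphorylation makes most of the ATP that neurons use to restore ion gradients after firing. Complex I (NADH dehydrogenase) and complex II (succinate dehydrogenase) pass electrons to ubiquinone, complex III passes them on to cytochrome c, and complex IV (cytochrome c oxidase) hands them to oxygen. Complexes I, III and IV pump protons across the inner mitochondrial membrane, and complex V (ATP synthase) lets them flow back while it makes ATP. Most subunits are encoded in the nucleus, and a core set of the most hydrophobic ones in mitochondrial DNA.

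Values are log2 RMA intensities, and differences are lead-exposed minus control on that scale. A target counted as measured above background on an array when its probes exceeded the 95th percentile of the 27114 random-sequence probes there, a limit that lay between 10.41 and 10.91 on the log2 scale of the probe values. Of the 114 members, 100 were above that limit on all 6 arrays, and 9 were above it on none. There were 12 members with a mean above 15, near the highest value of any target on an array, between 15.76 and 15.83, and the files give no saturation call for them. The arrays were much alike, with Pearson correlations across targets between 0.97 and 0.99 within groups and between groups, and the median target lay between 10.96 and 11.02 on each. The labelled tissue was borne out by its markers, since all 19 targets of 9 neuronal genes were above the limit on all 6 arrays. In whole brain RNA, fewer cells of a type and less RNA per cell cannot be told apart. Control arrays took the first 3 scan positions and lead-exposed arrays the last 3, so scan position and exposure cannot be told apart. The scanned images of lead-exposed 1 and control 1 were named without a prefix that stands on the remaining 4, and values by that prefix are given where they bear on a result.

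No oxidative phosphorylation target differed between lead-exposed and control brains at an adjusted p under 0.05. The lowest adjusted p among the members was 0.63 (limma, Benjamini-Hochberg over all 38489 targets), and 0% of all targets passed. At an unadjusted p under 0.05 there were 4 members, 3 higher and 1 lower in lead-exposed brains, which is 3.51% of them against 7.19% of all targets. Among all targets 4.19% were higher and 3% were lower at that p. The groups did not overlap in 15 members, 8 lower and 7 higher, or 13.2%, against 13.1% of all targets, 6.09% lower and 7.01% higher. Of the 100 members above the limit on all 6 arrays, 2 (1 of them higher) had an unadjusted p under 0.05, against 2.96% of the targets of the array that were equally above it (1.79% higher, 1.17% lower). The groups did not overlap in 8 lower and 5 higher of these 100, against 8.7% of such targets (4.44% lower, 4.26% higher). Over all members both shares were near or under the background. Among members above the limit on all 6 arrays the share without overlap was 13%, above the 8.7% of such targets. Some of these members share the name UQCRC1 and are not separate genes.

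The differences of the members were small and leaned one way. Lead-exposed means were lower in 89 of 114 members (78.1%), with a median difference of -0.08, against 50.8% and a median of 0.00 over all targets. Among the 100 members above the limit on all 6 arrays, 84 were lower with a median of -0.08, against 54.3% and -0.02 for the 17496 targets of the array that were equally above it. The lean was present under every scaling tried, with 83 to 91 members lower, and 50 of the 60 names were lower when the targets of a name were averaged. Among the single probes of the members, 227 of 332 were lower (68.4%), against 50.5% of the probes of all targets. For probes of targets above the limit on all 6 arrays the share was 52.5%. The probes come from the same arrays as the targets, so their count is no separate evidence of the lean. The differences of 77 members (67.5%) were smaller than 1 pooled SD of their replicates, much as for all targets (66.1%). Standard errors of the members ran from 0.11 to 0.66 with a median of 0.15. The 95% interval of the difference lay inside a 1.5-fold change in either direction for 81 members, each interval being for 1 target and not adjusted.

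**Figure D1:**
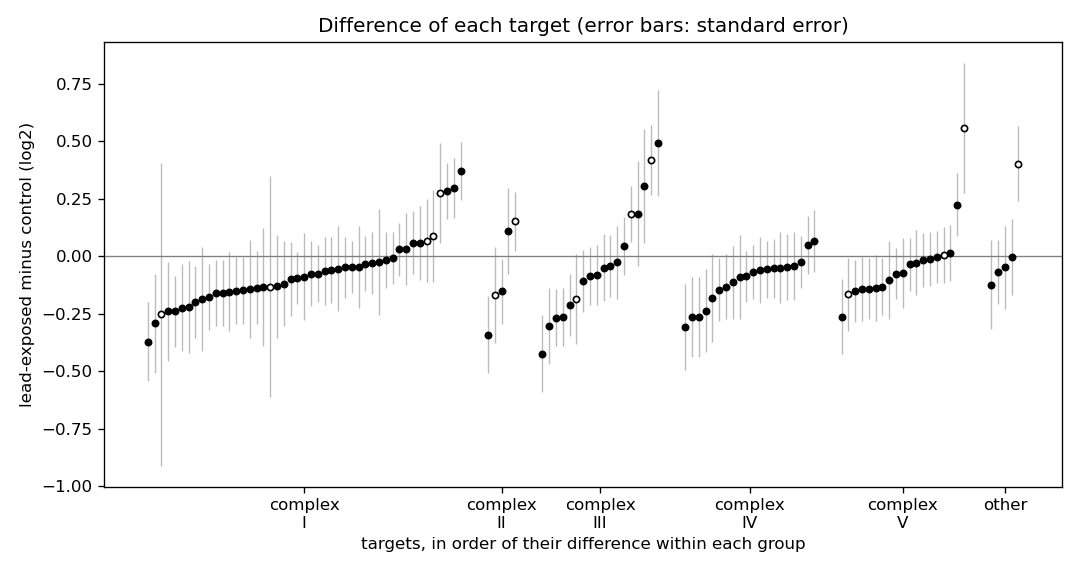
Each point is 1 target, placed by complex along the x axis and by its difference, lead-exposed minus control in log2 units, on the y axis; bars are standard errors, filled points were above the random-sequence limit on all 6 arrays and open points were not. Most points lie a little below 0, with 89 of 114 lower, and most bars cross 0.

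The lean was carried by some arrays and not by others. The mean deviation of the 114 members from their own 6-array means was -0.08, 0.08 and -0.09 in lead-exposed brains 1, 2 and 3, and 0.11, 0.02 and -0.04 in control brains 1, 2 and 3. Lead-exposed 1 and 3 lay lowest, and lead-exposed 2 lay among the controls, above control 2 and control 3. The SD of these means was 0.09 in lead-exposed brains and 0.07 in control brains (n = 3 each), of the size of the difference of -0.06 between them. Lead-exposed 3 gave the lowest of the 6 values in 55 members (48.2%), against 20.1% of all targets. The highest value was on lead-exposed 2 in 37 members and on control 1 in 33.

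**Figure D2:**
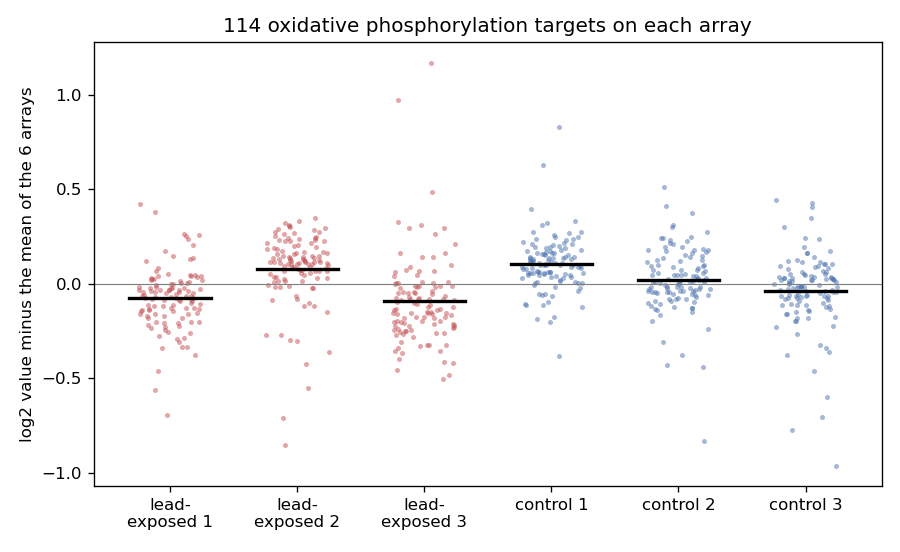
Each point is 1 of the 114 members, plotted for each brain as its log2 value minus the mean of that member over the 6 arrays; black bars are array means. The bars of lead-exposed 1 and 3 lie lowest and that of control 1 highest, while lead-exposed 2 lies above control 2 and control 3.

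Leaving out single arrays moved these counts. Without lead-exposed 3, 65 members were lower with a median of -0.02, where 50.4% of all targets were lower. Without control 1, 72 were lower with a median of -0.03, against 52.1% of all targets, and without lead-exposed 1, 76 were lower with a median of -0.05, against 49.8%. Without lead-exposed 2, 88 were lower with a median of -0.14, against 50.6% of all targets, and 11 were lower at an unadjusted p under 0.05, against 6.8%. The groups of 2 and 3 brains then did not overlap in 54 members with lower lead-exposed values, against 18.1% of all targets. Without control 3, 90 members were lower, against 51% of all targets, and 19 did not overlap with lower lead-exposed values, against 12.7%. Between the arrays without the image prefix, lead-exposed 1 and control 1, the mean difference of the members was -0.18, and among the 4 arrays with the prefix it was 0.00, where 64 of 114 were lower with a median of -0.02. The part of the prefix in the result was not tested.

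**Figure D3:**
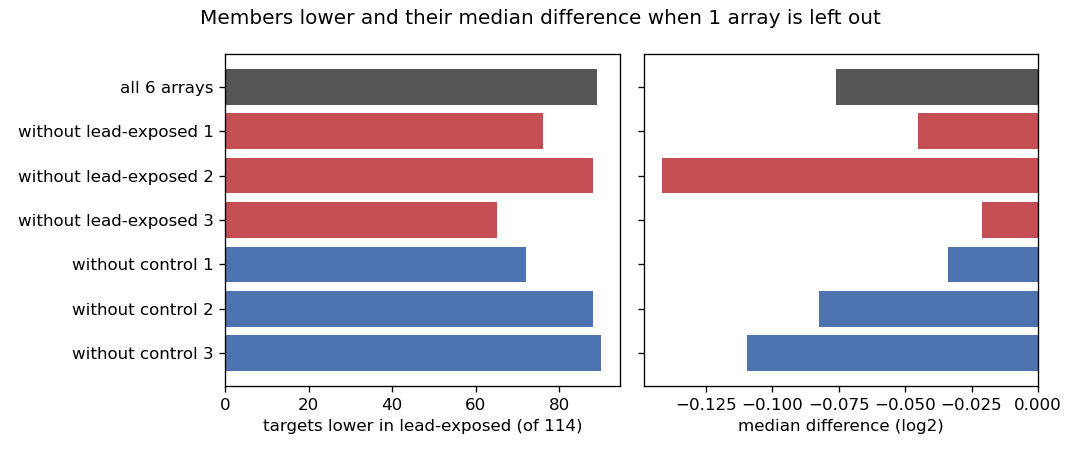
Bars give the number of the 114 members with a lower lead-exposed mean (left) and the median log2 difference of the members (right), with all 6 arrays and with 1 array left out. The count runs from 65 without lead-exposed 3 to 90 without control 3, and the median from -0.02 without lead-exposed 3 to -0.14 without lead-exposed 2.

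Complex I, the largest of the complexes, takes electrons from NADH. Lead-exposed means were lower in 37 of its 47 targets, with a median difference of -0.09. The targets above the limit on all arrays numbered 42, and the 95% interval lay inside a 1.5-fold change for 32 targets. The mean deviation of the complex was -0.09, 0.08 and -0.09 on the lead-exposed arrays and 0.12, 0.04 and -0.06 on the control arrays. Lead-exposed 2 was second only to control 1, so the groups overlapped.

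The subunits that carry the redox chain of complex I showed small differences. The flavoprotein ndufv1, which binds NADH, had 14.63, 14.83 and 14.68 in lead-exposed brains, against 14.77, 14.67 and 14.75 in control brains. These groups overlapped in full, with a difference of -0.02 ± 0.12 (SE) and a 95% interval from -0.30 to 0.27. The iron-sulfur subunit ndufs8 had 11.003, 11.865 and 11.547 in lead-exposed brains, against 11.760, 11.540 and 11.672 in control brains. Its lead-exposed values spanned the control ones, and the difference was -0.19 ± 0.23 (SE). NDUFS7, the iron-sulfur subunit next to the ubiquinone site, was read by 4 targets with differences between -0.24 and 0.03, among them 1 on the reverse strand.

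The lowest unadjusted p of a lower member in complex I was that of NDUFA6, an accessory subunit. Its target at 3:60976857-60983064 (Zv7) had 13.77, 14.09 and 13.58 in lead-exposed brains, against 14.26, 14.30 and 14.00 in control brains. Lead-exposed 2 lay above control 3 and the other 2 lay below every control. The difference was -0.37 ± 0.17 (SE), with unadjusted p = 0.071 and adjusted p = 0.72 in limma. A second NDUFA6 target nearby, at 3:60949693-60955347, differed by -0.13 ± 0.26 (SE). It belongs to another transcript cluster and may not read the same gene.

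NDUFA9, an accessory subunit that helps to hold the arms of complex I together, gave targets of opposite sign. Its target at 25:13373658-13377988 (Zv7) had 13.40, 13.40 and 13.52 in lead-exposed brains, against 13.07, 12.95 and 13.19 in control brains. All 3 lead-exposed values were above all controls, with a difference of 0.37 ± 0.13 (SE), an unadjusted p of 0.022 and an adjusted p of 0.63, the lowest among the members. In another annotation field that target carries a name that the atp5i target carries too, so it may not be particular to NDUFA9. The mRNA target of the same annotated transcript cluster had 13.80, 14.28 and 13.50 in lead-exposed brains, against 14.27, 14.19 and 13.99 in control brains. There lead-exposed 2 was the highest value and the other 2 were the lowest, and the difference was -0.29 ± 0.21 (SE). A further target of that cluster differed by -0.22 ± 0.19 (SE), and the mean of the 3 by -0.05.

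Elsewhere in complex I the groups did not overlap in 3 targets. With the NDUFA9 target, targets without overlap were 1 lower and 3 higher, or 8.51% of the 47. Among all targets the share was 13.1% (6.09% lower, 7.01% higher). It was 8.7% among targets above the limit on all 6 arrays, as 42 of the 47 were, so the complex was near that share. NDUFB7, an accessory subunit, had 15.21, 15.31 and 15.23 in lead-exposed brains, against 15.33, 15.38 and 15.33 in control brains. The lower lead-exposed values were apart from the controls by very little, with a difference of -0.09 ± 0.11 (SE) at a level near the top of the array. A target of NDUFV3, an accessory flavoprotein subunit, at 9:12760530-12765421 had 10.28, 10.39 and 10.23 in lead-exposed brains, against 10.10, 10.02 and 9.93 in control brains. The target was above the random-sequence limit on all arrays, but its level was near that limit. It was higher in all 3 lead-exposed brains, by 0.28 ± 0.12 (SE), with an unadjusted p of 0.053 in limma, and of the other 3 NDUFV3 targets, the one at 9:12733164-12746248 differed by -0.09 ± 0.19 (SE), a further one by 0.06 ± 0.14 (SE), and the last was not above the limit on any array. A reverse-strand target of NDUFAB1, the mitochondrial acyl carrier protein, was higher by 0.30 ± 0.13 (SE). The NDUFAB1 target at 3:33299272-33300363 differed by -0.08 ± 0.12 (SE) and another by -0.02 ± 0.23 (SE), while the forward partner of the first was above the limit on 2 lead-exposed arrays and on 0 control arrays. The annotation gives several homologue names to both NDUFV3 targets with a position here. It does so too for every NDUFAB1 target but the one at -0.02, which it ties to 10 transcript clusters. These targets may therefore not be particular to the gene named.

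Complex II, which links the citric acid cycle to the chain, had 5 targets, of which 3 were lower, with a median difference of -0.15, and 3 of the 5 were above the limit on all arrays. The sign of that median depended on the scaling, and it was 0.015 with the arrays centred on the random-sequence probes. SDHB, the iron-sulfur subunit, had 13.82, 13.80 and 13.71 in lead-exposed brains, against 13.83, 14.12 and 14.39 in control brains, at 22:7573147-7577799 (Zv7). The lead-exposed values were close together and all below the controls, the lowest of which nearly touched them. The difference was -0.34 ± 0.17 (SE), with unadjusted p = 0.08 and adjusted p = 0.72 in limma. The annotation ties this target to 55 transcript clusters, so its sequence may not be particular to SDHB. The flavoprotein sdha, which oxidises succinate, had 14.51, 14.47 and 14.33 in lead-exposed brains, against 14.49, 13.96 and 14.55 in control brains. Control 2 was low and the other 5 values ran together, and the difference was 0.11 ± 0.19 (SE). The membrane anchor SDHC had 14.44, 14.73 and 14.45 in lead-exposed brains, against 14.79, 14.58 and 14.71 in control brains. Lead-exposed 2 lay within the controls, and the difference was -0.15 ± 0.14 (SE). The other two sdhc targets were not above the limit on any array.

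Complex III had 12 of 18 targets lower, with a median of -0.06, and 15 were above the limit on all arrays. Its targets included members apart in both directions, with 4 lower and 2 higher targets whose groups did not overlap, or 33.3% of the 18 against 13.1% of all targets (6.09% lower, 7.01% higher). Of the 4 lower targets 3 belong to the 1 transcript cluster of UQCRC1, so they are not separate genes. Both higher targets are named UQCR and also carry the name unc45r in another annotation field. They may therefore not be separate genes either, nor particular to UQCR. UQCRH, the hinge protein that helps cytochrome c to dock, had 14.28, 14.51 and 14.26 in lead-exposed brains, against 14.65, 14.61 and 14.59 in control brains. The controls lay within a narrow band and all 3 lead-exposed values were below it. The group means were 14.35 ± 0.14 in lead-exposed and 14.62 ± 0.03 in control brains (SD, n = 3 each), and the difference was -0.26 ± 0.13 (SE), or 0.83-fold, with unadjusted p = 0.076 and adjusted p = 0.72 in limma.

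UQCRC1 is a core subunit of complex III on the matrix side. Its name was given by homologue to 5 targets that share 1 transcript cluster in the annotation and so are not separate measurements of different genes. The only member lower at an unadjusted p under 0.05 was one of them, a transcript-assembly target without a position. It had 11.23, 10.93 and 11.28 in lead-exposed brains, against 11.34, 11.61 and 11.76 in control brains. All lead-exposed values lay below all controls, and the difference was -0.42 ± 0.17 (SE), with unadjusted p = 0.039 and adjusted p = 0.68 in limma. The 3 targets on chromosome 1 of Zv7, whose positions partly overlap, differed in the same direction. The one at 1:10842227-10842866 had 12.28, 12.10 and 12.33 in lead-exposed brains, against 12.51, 12.46 and 12.53 in control brains. Its groups were again apart, with a difference of -0.27 ± 0.12 (SE). The target at 1:10841764-10842191 differed by -0.30 ± 0.17 (SE) with overlapping groups, and the one at 1:10842095-10842541 by -0.21 ± 0.13 (SE) with groups apart. The reverse-strand target of the first sequence went the other way, by 0.19 ± 0.23 (SE). Its means were 13.12 in lead-exposed and 12.94 in control brains, above the 11.15 and 11.57 of its forward partner. Which of the 2 strands reads the transcript was not tested. In these 4 forward targets lead-exposed 2 was the lowest lead-exposed value, whereas over all members it was the highest lead-exposed array. A further target, which the files name only by a clone but current naming assigns to zebrafish uqcrc1, lay outside the rule. It had 14.44, 14.53 and 14.29 in lead-exposed brains, against 14.57, 14.61 and 14.57 in control brains. The groups were apart there too, with a difference of -0.17 ± 0.12 (SE). Its level was above that of the 5 members, and lead-exposed 2 was its highest lead-exposed value, unlike in the 4 forward targets. Since the 5 members carry the name UQCRC1 by homologue only, they may read another locus.

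The other members of complex III varied. The 2 targets of UQCRC2, the partner of UQCRC1 in the matrix, differed by -0.11 ± 0.13 and -0.09 ± 0.13 (SE). They lie on chromosomes 12 and 3, so they may not read the same gene. The Rieske iron-sulfur protein uqcrfs1 had 14.50, 14.99 and 14.75 in lead-exposed brains, against 14.85, 14.75 and 14.73 in control brains. Its lead-exposed values held both the lowest and the highest of the 6, and the difference was -0.03 ± 0.16 (SE). The cytochrome c1 gene cyc1 differed by 0.05 ± 0.13 (SE) in the target that was above the limit. UQCR, the name of a small subunit, was given by homologue to 6 targets that fell into separate sets. Each of them with a higher lead-exposed mean also carries the name unc45r or calub in another annotation field, and so may not read UQCR. The UQCR targets with a lower mean carry no such name. On the scaffold Zv7_NA72 the target at 174078 to 199064 differed by -0.08 ± 0.13 (SE), while the one at 207527 to 208139 had 11.44, 11.47 and 11.53 in lead-exposed brains, against 11.29, 11.21 and 10.46 in control brains. The last control value was far below the others, and the difference was 0.49 ± 0.23 (SE). Another UQCR target, with 11.93, 12.22 and 12.25 in lead-exposed brains against 11.87, 11.73 and 11.55 in control brains, had an unadjusted p of 0.029 in limma. It was above the random-sequence limit on 2 lead-exposed arrays and on 0 control arrays, so no fold is given.

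Complex IV reduces oxygen to water. It had 18 of 20 targets lower, with a median of -0.08, and all 20 were above the limit on all arrays. None had an unadjusted p under 0.05. The mean deviation of the complex was -0.12, 0.10 and -0.14 on the lead-exposed arrays and 0.12, 0.03 and 0.01 on the control arrays. The gap between lead-exposed 2 and the other lead-exposed arrays was as wide as in any complex of the chain, and on the 4 arrays with the image prefix the median difference of the complex was 0.00. The SD of the array means was 0.13 in lead-exposed brains and 0.06 in control brains.

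COX4I1, the subunit through which ATP regulates the oxidase, gave the widest difference of complex IV. Its mRNA target at 23:16800044-16806697 (Zv7) had 13.95, 14.39 and 13.72 in lead-exposed brains, against 14.37, 14.33 and 14.28 in control brains. The controls were tight, lead-exposed 1 and 3 were below them and lead-exposed 2 above, and the difference was -0.31 ± 0.19 (SE), with adjusted p = 0.77 in limma. The other two targets under this name differed by -0.14 ± 0.14 and -0.05 ± 0.16 (SE). COX4I2, the isoform known in mammals for its tie to low oxygen, had 12.60, 12.19 and 12.47 in lead-exposed brains, against 12.44, 12.86 and 12.74 in control brains. Here lead-exposed 2 was the lowest value, unlike in COX4I1, and the difference was -0.26 ± 0.17 (SE).

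COX5A, a matrix-side subunit, was read by 3 targets. Where a position is given, they lie on chromosomes 25 and 18, so they may not read the same gene. The one with the widest difference had 14.17, 14.59 and 14.09 in lead-exposed brains, against 14.69, 14.56 and 14.40 in control brains. Lead-exposed 2 again fell within the controls, and the difference was -0.26 ± 0.17 (SE). The other two differed by -0.11 ± 0.16 and -0.07 ± 0.12 (SE). Its neighbour in the complex, COX5B, was at -0.03 ± 0.11 (SE), with a 95% interval from -0.29 to 0.24, at a level near the top of the array. COX7A2 differed by -0.24 ± 0.18 (SE) in one forward target and by -0.06 ± 0.15 (SE) in the other. The reverse-strand partner of the first differed by -0.04 ± 0.15 (SE). Its means were 14.17 in lead-exposed and 14.22 in control brains, above the 13.69 and 13.92 of that forward target. Each COX7A2 target is tied to 12 transcript clusters and so may not be particular to that gene. The targets of cox7a2l, known in mammals as a factor that joins complexes III and IV, differed by -0.18 ± 0.19 and -0.09 ± 0.18 (SE). COX8 differed by -0.13 ± 0.14 (SE). The 2 targets with a higher lead-exposed mean were those of COX6A1, at 0.05 ± 0.13, and cox7c, at 0.07 ± 0.14 (SE), and each of these names also had a target at -0.05. NDUFA4 had the one target of the complex whose groups did not overlap, with 14.57, 14.62 and 14.58 in lead-exposed brains, against 14.69, 14.65 and 14.69 in control brains. The gap was narrow, and the difference was -0.09 ± 0.11 (SE). That target was 5% of the complex. The groups did not overlap in 13.1% of all targets and in 8.7% of those above the limit on all 6 arrays.

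**Figure D4:**
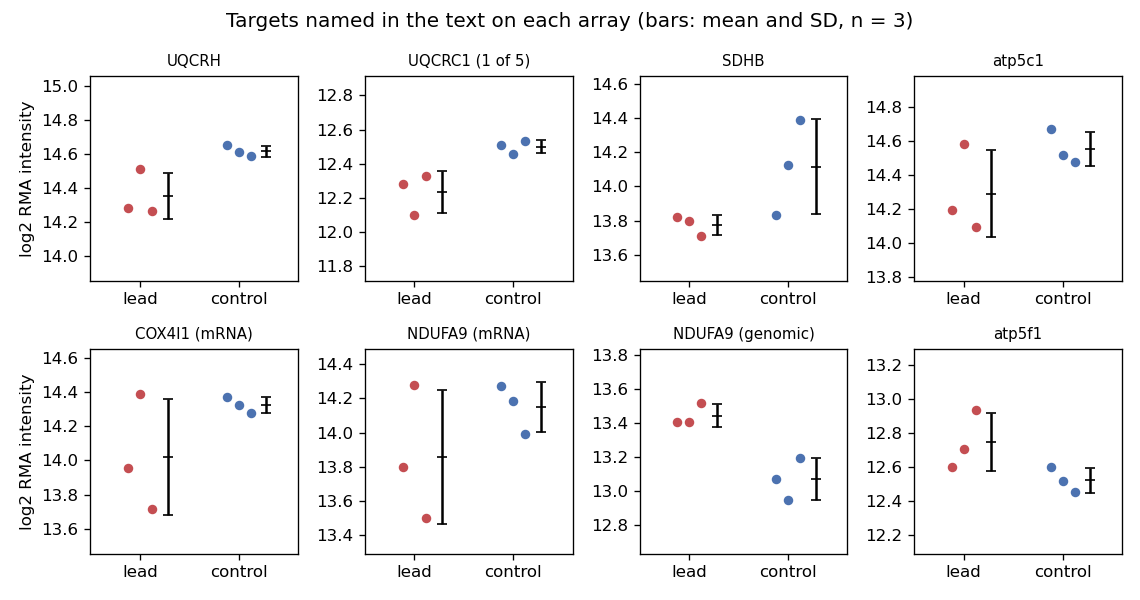
Log2 RMA intensity of 8 targets in each brain, with lead-exposed brains to the left of control brains in each panel, and bars for the mean ± SD (n = 3); every y axis has the same span. UQCRH, UQCRC1 and SDHB are lower in all 3 lead-exposed brains, atp5c1, COX4I1 and the NDUFA9 mRNA target overlap, with lead-exposed 2 among or above the controls, and the genomic NDUFA9 target is higher in all 3; those of atp5f1 are also higher, with lead-exposed 1 and control 1 almost equal.

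Complex V had 15 of 19 targets lower, with a median of -0.07, and 16 were above the limit on all arrays. None had an unadjusted p under 0.05, and the 95% interval lay inside a 1.5-fold change for 17. The catalytic head of the enzyme is built from alpha and beta subunits. ATP5B, the beta subunit that holds the catalytic sites, had 15.37, 15.37 and 15.32 in lead-exposed brains, against 15.44, 15.40 and 15.45 in control brains. The groups did not overlap, but the difference was only -0.08 ± 0.11 (SE) with a 95% interval from -0.34 to 0.19, and the level was near the top of the array. ATP5A1, the alpha subunit, had 14.46, 14.75 and 14.48 in lead-exposed brains, against 14.70, 14.66 and 14.78 in control brains. Lead-exposed 2 lay between the controls, and the difference was -0.15 ± 0.13 (SE).

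The gamma subunit atp5c1, the rotating shaft of the head, had 14.19, 14.58 and 14.09 in lead-exposed brains, against 14.67, 14.51 and 14.47 in control brains. The difference was -0.26 ± 0.16 (SE), with adjusted p = 0.78 in limma. Lead-exposed 1 and 3 lay below the controls and lead-exposed 2 among them, as in the COX5A target with the widest difference. In the COX4I1 mRNA target lead-exposed 2 lay above the controls instead. Of the delta subunit ATP5D, both targets were lower, by -0.14 ± 0.14 and -0.07 ± 0.15 (SE). The c subunits, which form the rotor ring in the membrane, are encoded by several genes. ATP5G2 differed by -0.02 ± 0.12 (SE) and the ATP5G3 target at 9:2320928-2328394 by -0.13 ± 0.12 (SE), while the other two ATP5G3 targets, one of them on the reverse strand, were not above the limit on any array. The level of ATP5G2 was near the top of the array.

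The stalk subunits of complex V differed among themselves. The stator subunit atp5f1 had 12.60, 12.71 and 12.93 in lead-exposed brains, against 12.60, 12.52 and 12.45 in control brains. It was the only complex V target higher in all 3 lead-exposed brains, lead-exposed 1 and control 1 being almost equal, and the difference was 0.22 ± 0.14 (SE) with an unadjusted p of 0.14 in limma. ATP5J, coupling factor 6, had targets at -0.10 ± 0.17, -0.03 ± 0.14 and 0.02 ± 0.12 (SE). The 2 targets of the stator subunit ATP5H both differed by -0.14, and the small membrane subunits atp5i, atp5l and ATP5J2 lay between -0.04 and 0.00. The levels of atp5i and atp5l were near the top of the array.

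**Figure D5:**
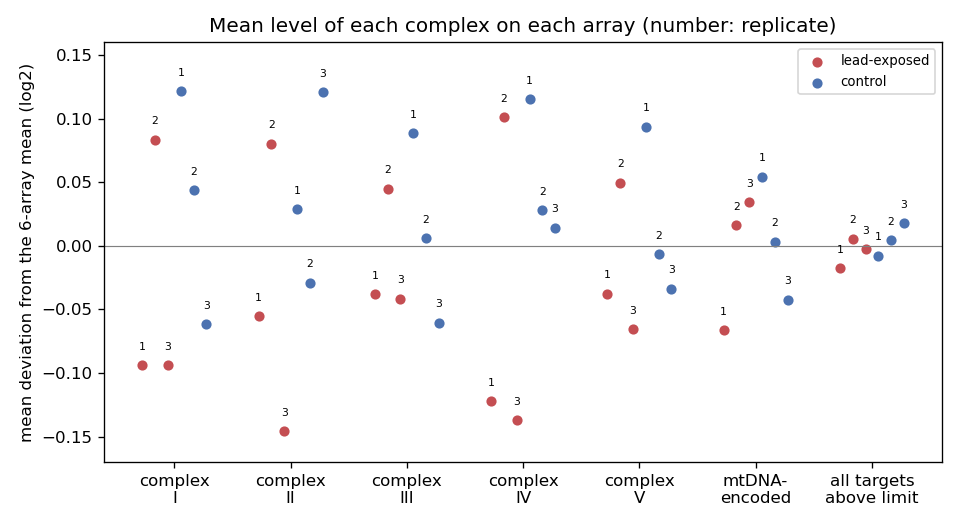
Each point is the mean over the targets of a complex, on 1 array, of the log2 value minus the 6-array mean of each target, with the replicate number above it; lead-exposed arrays stand to the left within each complex. In complexes I, III, IV and V control 1 is highest and lead-exposed 2 second, and in complexes I, II, IV and V lead-exposed 3 is lowest or level with lead-exposed 1; the means of mitochondrial DNA-encoded subunits and of all targets above the limit are shown beside them.

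Of the 5 targets of genes that are no subunit 4 were lower, their median difference being -0.05 and their mean 0.03. NDUFAF1, an assembly factor of complex I, differed by -0.12 ± 0.20 (SE), cox4nb by -0.07 ± 0.14 (SE), and the atp5s targets by -0.05 ± 0.18 and 0.00 ± 0.17 (SE). The fourth member with an unadjusted p under 0.05, ndufa12l, was not above the limit on any array, so no fold is given.

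Several targets under one name gave the same sign in 17 of the 32 names with more than 1 target and opposite signs in 15. In 4 of those names, ATP5G3, NDUFA9, UQCR and UQCRC1, the targets stood at least 0.5 apart. Of the 104 members with 3 probes, 41 had all probes lower in lead-exposed brains, 5 had all higher and 58 were mixed.

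The subunits encoded by mitochondrial DNA were near 0. Of 13 such genes 7 were measured, with 1 target each, and all were above the limit on all arrays. Lead-exposed means were lower in 4 of 7, with a median of -0.01 and a range from -0.09 to 0.07, and none had an unadjusted p under 0.05. The complex I gene mt-nd1 had 15.13, 15.32 and 15.34 in lead-exposed brains, against 15.40, 15.29 and 15.36 in control brains. Lead-exposed 1 alone was low there, and the difference was -0.09 ± 0.12 (SE). The oxidase core subunit mt-co2 differed by 0.01 ± 0.12 (SE), and mt-cyb, the cytochrome b of complex III, by -0.03 ± 0.12 (SE). Their array means were -0.07, 0.02 and 0.03 in lead-exposed brains and 0.05, 0.00 and -0.04 in control brains, so lead-exposed 3 was not low as it was among the nuclear subunits. Of these 7 targets 6, all but mt-nd3, had means above 15, near the top of the array. No test compared the mitochondrial with the nuclear genes.

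Further nuclear genes of the pathway lay outside the rule because the files name them by clone or by older symbols. There were 35 such targets, of 28 genes, whose current symbol would meet it. Lead-exposed means were lower in 25 of 35, with a median of -0.09. Their array means were -0.09, 0.17 and -0.16 in lead-exposed brains and 0.10, -0.05 and 0.03 in control brains, with lead-exposed 2 again the high one of its group. Cytochrome c, the mobile carrier between complexes III and IV, had no member under the rule, and its gene cycsb was in this list with a difference of -0.04 ± 0.14 (SE). The muscle-type oxidase subunit cox6a2 had 11.68, 12.04 and 11.23 in lead-exposed brains, against 11.98, 11.94 and 12.04 in control brains. Lead-exposed 2 was level with the controls and the others were below them, with a difference of -0.34 ± 0.21 (SE). The complex I assembly factor ndufaf7 had 10.66, 10.73 and 10.60 in lead-exposed brains, against 10.81, 11.02 and 11.16 in control brains. All lead-exposed values were below all controls, by -0.33 ± 0.14 (SE), with an unadjusted p of 0.047 and an adjusted p of 0.69 in limma. The other target of this list at that p was ndufs8b, which was not above the limit on any array. Together they were 5.71% of the 35 targets, against 7.19% of all targets at that p.

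The authors' deposited table of altered targets, with 180 entries for an array of 38489 targets, held 0 of the 114 members. At that rate few or no members would be in it, so the 0 says little about them. The table did hold that ndufs8b target, under the name NDUFS8, with a log2 ratio of 0.66 and a p of 0.0093 in the authors' deposited table. The ndufs8 member described above is a separate target.

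Other parts of the mitochondrial program varied. Enzymes of the citric acid cycle and mitochondrial carriers were lower in 25 of 33 targets (18 genes), with a median of -0.05 and none at an unadjusted p under 0.05. Citrate synthase, cs, which opens the cycle, had 13.82, 14.27 and 13.95 in lead-exposed brains, against 14.24, 14.17 and 14.17 in control brains. Lead-exposed 2 was the highest and the others the lowest, as in many oxidase subunits, and the difference was -0.18 ± 0.15 (SE). Array means of this list were -0.07, 0.11 and -0.14 in lead-exposed brains and 0.05, 0.03 and 0.02 in control brains. Assembly factors outside the rule were lower in 19 of 40 targets (25 genes), with a median of 0.03. The 1 target at an unadjusted p under 0.05 in limma, of cox10, was not above the limit on any array. It was 2.5% of the 40, against 7.19% of all targets. Regulators of mitochondrial biogenesis were lower in 11 of 20 targets (13 genes), their median being -0.01 and their mean 0.02. Inhibitors and uncouplers were lower in 4 of 8 targets (7 genes), with a median of 0.00. The genes atp5if1a and atp5if1b stand both there and among the genes that meet the rule by current symbol. Of these atp5if1b, which inhibits ATP synthase when it would run backwards, had 13.51, 13.84 and 13.52 in lead-exposed brains, against 14.02, 13.86 and 13.89 in control brains. The groups were apart by a narrow margin, with a difference of -0.30 ± 0.14 (SE) and an unadjusted p of 0.075 in limma.

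Markers of some cell types varied over the same arrays. Array means of the astroglia and radial glia list (7 targets of 6 genes, 6 above the limit on all arrays) were 0.00, 0.16 and -0.33 in lead-exposed brains and 0.14, 0.04 and -0.01 in control brains. Those of the microglia and macrophage list (10 targets, 3 above the limit on all arrays) were 0.13, 0.41 and -0.85 in lead-exposed brains and -0.08, 0.42 and -0.02 in control brains. Lead-exposed 3 was thus the lowest array and lead-exposed 2 among the highest for both lists and for the subunits. The other marker lists did not share that order. Oligodendrocyte markers had 0.09, -0.05 and 0.01 in lead-exposed brains and -0.10, -0.07 and 0.11 in control brains. Pituitary markers, mostly below the limit, had 0.18, -0.39 and 0.06 against 0.14, -0.05 and 0.06. Endothelial markers had -0.17, 0.04 and 0.04 against 0.06, 0.21 and -0.17. Red blood cell markers (10 targets) had 0.51, 0.25 and -0.54 in lead-exposed brains and -0.60, -0.33 and 0.71 in control brains. Neuronal markers had -0.08, 0.00 and 0.05 in lead-exposed brains and 0.06, 0.05 and -0.08 in control brains, and their summed linear intensity ran from 521783 to 542918 in lead-exposed brains and from 519212 to 550932 in control brains. Skeletal muscle markers, which could come from tissue next to the brain, were above the limit on no array in 20 of 28 targets. On all arrays 6 of the 28 were above it. Array means of this list were -0.04, -0.07 and -0.08 in lead-exposed brains and -0.03, 0.32 and -0.10 in control brains, with control 2 the high one. The part of these cell types in the result was not tested.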

How the data were processed

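The authors deposited 1 linear intensity per target and array, which the submitters' processing notes credit to RMA (no version in the sources used here), and a series value table with 1 intensity per probe. The authors' deposited list gives log2 ratios and p-values, whose test is not given in the sources used here. Log2 was taken of the RMA intensities with no filter, and a 2-sided limma test (version 3.58.1, R 4.3.3; lmFit, then eBayes) set lead-exposed against control arrays without covariates, with Benjamini-Hochberg adjustment over 38489 targets. Tables and plots were made with Python 3.11.15. The random-sequence limit was applied to the probe table. Array means of a list average, over its targets, the log2 value minus the 6-array mean. The fit was tested on simulated data.

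Positions are Zv7, as the array files give them; those of the 33 targets taken from Vega transcripts did not match those of other targets of the same genes and are not printed. Current names came from a table of zebrafish gene names. The members, lists, tests and alternatives were chosen with earlier results of these data known. The rule named, per complex, up to 3 higher and 3 lower names by smallest p, fixed redox and catalytic centres, the complex IV family and names whose targets disagreed; other names printed were chosen after their values were seen. The values of 1 name that the rule took are not reported here. Each sample was 1 fish, and whether fish shared a tank is not given, so the p-values reflect only how these fish vary, and their number limits the precision. With 3 arrays against 3, an exact permutation test cannot give p below 0.1. Alternatives covered scaling, filters on dim targets, the test, blocks and arrays left out.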

Additional observations from a re-analysis of the deposited data

How the results depend on the processing

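No alternative put a member past the adjusted threshold in limma, and the lowest adjusted p of a member was 0.26, with array weights. Leaving out 1 array gave 65 to 90 members lower and medians from -0.14 to -0.02. At an unadjusted p under 0.05 in limma, 0 to 3 members were higher and 0 to 11 lower. Among all targets 2.79% to 6.31% were then higher and 1.93% to 6.8% lower at that p. Groups did not overlap in 10 to 54 lower and 7 to 10 higher members. Among all targets the shares without overlap were 9.34% to 18.1% lower and 9.78% to 15.3% higher. The 11 were found without lead-exposed 2, where 6.8% of all targets were lower at that p. The medians ran from -0.15 to -0.01 in complex I, -0.25 to -0.045 in complex II, -0.13 to -0.011 in complex III, -0.15 to -0.04 in complex IV and -0.12 to -0.02 in complex V. The complex II median was -0.0064 in the series value table, 0.015 with that table centred on random-sequence probes and -0.038 on the 4 arrays with the image prefix, where that of complex IV was 0.0013 and those of complexes I, III and V were -0.021, -0.024 and -0.016. With array weights 95 members were lower (median -0.13), and complexes III and IV had medians of -0.13 and -0.14. Lead-exposed 2 and control 3 then counted least, with weights of 0.49 and 0.53, against 0.96 to 2.26 for the others. Leaving out either of these arrays also widened the median difference of the members. With 1 value per gene, given to each of its targets, complexes II, IV and V had medians of -0.057, -0.12 and -0.039. Members lower at an unadjusted p under 0.05 numbered 0 with random-sequence centring, with 1 value per gene and with the image prefix as a block, where 2.13%, 2.76% and 2.64% of all targets were lower at that p. They numbered 7 of 114 with array weights (7.14% of all targets), 3 with trend and robust moderation (3.02%) and 4 without moderation (3.07%). Members higher at that p numbered 1 with 1 value per gene (3.89% of all targets), with array weights (8.28%) and among members above the limit on all arrays. Groups that did not overlap numbered 3 lower with random-sequence centring (4.48% of all targets), and 12 lower and 13 higher on the 4 prefix arrays (14.3% and 13.8%). Without reverse-strand, several-name and non-subunit targets they numbered 4 higher of 97, against 7.01% of all targets. The genomic NDUFA9 target took the value -0.047 with 1 value per gene. The last choice of targets and the restriction to members above the limit were made after seeing the data. The cause of these changes was not tested. With the replicate number as a block, 1 member was higher and 2 were lower at an unadjusted p under 0.05, against 4.41% and 3.41% of all targets; same-numbered arrays had deviations correlated at -0.15, 0.14 and 0.26, so the numbers were not taken to pair the fish. The array files give no depth, and signals near the random-sequence limit or near the top of the array restrict what differences can be seen.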
